A study of Mus musculus with 2 samples.

Results

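This report describes 10 paternally expressed imprinted genes of the mouse, Snrpn, Ndn, Peg12, Peg3, Mest, Peg10, Sgce, Nnat, Plagl1 and Impact, among the 32285 genes counted in single cells of gastruloids. The 10 rows were picked by gene symbol, with earlier results of the same libraries known. Ratios between the libraries are therefore given as a description, with no test.

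Gastruloids are embryonic stem cell aggregates in which a body axis begins to form. They were started here from about 300 cells each, all of the embryonic stem cell line R1 or its mutant derivative, in N2B27, a medium without serum. Both groups received 3 µM CHIR, a GSK3 inhibitor that switches on Wnt signalling, for 12 hours from day 2, and both were collected at day 2.5. The groups were wild type and an Sp5/8 double mutant, in which the genes of both of these transcription factors are disrupted per the labels, and aggregates of each were pooled into 1 library. The number of clones behind the mutant line is not given in the sources used here. Each genotype has 1 library, so no difference between them has a replicate check, and culture, library and genotype cannot be told apart.

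Imprinted genes are transcribed mainly from the copy inherited from 1 parent, and the members are those for which that copy is usually the paternal. The choice is set by DNA methylation laid down in the germ line at a control region of each locus and kept through early development. Embryonic stem cell lines are known to lose such marks at times. The counts do not separate the alleles, so they give the summed level of both copies and do not measure imprinting.

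A cell was a barcode with at least 2500 UMIs (molecular tags, each marking 1 captured transcript), at least 1000 genes and at most 10% mitochondrial UMIs. These limits kept 8707 cells of the library labelled wild type and 10587 of that labelled double mutant, with 97157331 and 97644169 UMIs in them and medians of 10571 and 8637 UMIs a cell. The labels give 9238 and 11190 cells, from a filter whose limit is not given in the sources used here. Among the cells kept, 27 barcodes occurred in both libraries. Sp5, the gene to be absent, stood at 109 CPM (UMIs in 1e6) in the library labelled wild type and 479 CPM in that labelled double mutant, and Sp8 at 20.8 and 40.1 CPM. Both go against the labels. Which part of either gene was deleted is not given in the sources used here, and tags from the 3′ end can lie outside a deleted part. An exchange of the 2 labels would also give these levels and would turn the sign of every ratio between the libraries, and neither was tested. The libraries are therefore named by their labels throughout. Epiblast markers summed to 1556 and 1672 CPM, primitive streak markers to 304 and 498 CPM and early neural markers to 93.6 and 49.5 CPM, and naive pluripotency and extraembryonic endoderm markers to at most 36.9 CPM. The streak sum is mostly Eomes and Fgf8. Mesp1 (1.35 and 0.369 CPM), Lhx1 (1.65 and 1.09 CPM) and Evx1 (11.3 and 9.69 CPM) of that list went the other way.

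The members lie in 7 loci (GRCm38, GENCODE M21). Snrpn (ENSMUSG00000102252, chr7:59982495-60140219), Ndn (ENSMUSG00000033585, chr7:62346569-62350262) and Peg12 (ENSMUSG00000070526, chr7:62461871-62464510) share the region that in humans is tied to Prader-Willi syndrome. Snrpn encodes SmN, a core protein of the spliceosome, Ndn encodes necdin of the MAGE family, and Peg12 encodes a relative of the GSK3-binding protein Frat. Peg3 (ENSMUSG00000002265, chr7:6703892-6730431), a large zinc finger protein gene, lies elsewhere on the same chromosome. Mest (ENSMUSG00000051855, chr6:30723547-30748465) encodes a hydrolase-like protein of mesoderm. Peg10 (ENSMUSG00000092035, chr6:4747306-4760517), derived from a retrotransposon and required for the placenta, and Sgce (ENSMUSG00000004631, chr6:4674350-4747207), which encodes epsilon-sarcoglycan, are transcribed away from each other. Nnat (ENSMUSG00000067786, chr2:157560078-157562522) encodes neuronatin, a small membrane protein, and Plagl1 (ENSMUSG00000019817, chr10:13060504-13131694) a zinc finger transcription factor. Impact (ENSMUSG00000024423, chromosome 18) encodes a regulator of the kinase that lowers translation when amino acids are short.

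Several members overlap other genes, and the sources used here do not say whether counting used strand. Mest overlaps Copg2 and Nnat overlaps Blcap on the opposite strand. Snrpn shares its strand with Snurf, which is read from the same transcript, and with Gm38393. Snurf was listed with 0 UMIs in both libraries, so reads of that shared transcript were not counted under its name.

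Imprinted promoters often carry the hexamer TGCCGC, which the zinc finger protein ZFP57 binds when it is methylated. RefSeq promoter windows (GRCm38.p6, 250 bases before to 50 after a start site) were at hand for 7 of the 10 members, all except Peg10, Sgce and Impact, and gave 12 windows. The hexamer stood on either strand in 5 of the 12 windows, in Snrpn, Mest, Nnat and Plagl1, and in 11.6% of all 32851 windows of that length in the table. The windows of Mest with the hexamer number 2 and overlap each other almost fully. Shown here are the stretches before the start site of the members with the largest library ratio in each direction, Snrpn and Mest. The stretch of Peg3 is also shown, since its level moved against that of Mest in cells with a low share of chromosome 6 UMIs. Snrpn has 4 windows in the table and Mest has 3. The one shown for Snrpn is the only one of its 4 with the hexamer, that of Mest is the first of its 2 with it, and both were chosen for this. Capitals mark the hexamer, read here on the opposite strand as GCGGCA, and each line runs 5′ to 3′ along the gene. The Snrpn stretch is chr7:60005196-60005449 (minus strand), which ends 4 bases past the start site, that of Mest is chr6:30737800-30738049 (plus strand) and that of Peg3 is chr7:6730420-6730669 (minus strand).
Snrpn: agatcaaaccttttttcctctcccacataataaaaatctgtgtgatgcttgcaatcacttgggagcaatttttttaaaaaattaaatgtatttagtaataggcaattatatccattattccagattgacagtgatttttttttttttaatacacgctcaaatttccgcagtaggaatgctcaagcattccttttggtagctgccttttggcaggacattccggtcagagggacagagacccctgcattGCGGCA
Mest: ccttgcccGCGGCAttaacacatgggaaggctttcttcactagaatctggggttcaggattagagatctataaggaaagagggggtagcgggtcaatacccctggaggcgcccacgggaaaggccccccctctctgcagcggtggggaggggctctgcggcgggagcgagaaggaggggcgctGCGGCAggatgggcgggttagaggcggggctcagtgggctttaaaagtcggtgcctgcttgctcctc
Peg3: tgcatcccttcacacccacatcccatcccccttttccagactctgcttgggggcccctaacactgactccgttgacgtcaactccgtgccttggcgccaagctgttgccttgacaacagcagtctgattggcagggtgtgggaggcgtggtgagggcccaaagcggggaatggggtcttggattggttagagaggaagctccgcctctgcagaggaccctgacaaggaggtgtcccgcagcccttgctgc
Mest held 2 copies of the hexamer and 14 CpG sites in this stretch, Snrpn 1 copy and 4 CpG sites, and Peg3 no copy and 8 CpG sites. A match of letters is a description and not a bound site, and no methylation was measured.

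Over all cells, the level of Snrpn in the library labelled double mutant, 600.2 CPM, was 1.64-fold that in the library labelled wild type, 366 CPM, and Mest was 1.33-fold lower, at 52.9 CPM against 70.5 CPM. The other members differed by less. The log2 ratio (library labelled double mutant over library labelled wild type, pseudocount 0.5 count) was 0.71 for Snrpn, with a 95% interval of 0.70 to 0.73, and -0.41 for Mest, with an interval of -0.47 to -0.36. These intervals come from Poisson counting and hold no error between cultures. Of the 7607 genes with a mean of at least 10 CPM, 3.44% differed by the fold used here, a level at least 25% higher in either library (0.32 on the log2 scale), 1.42% upward and 2.02% downward in the library labelled double mutant. Of the 8 members at that level, 1 was past this fold upward and 1 downward. Snrpn ranked 12 from the highest of the 7607 ratios and Mest 67 from the lowest.

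**Figure D1:**
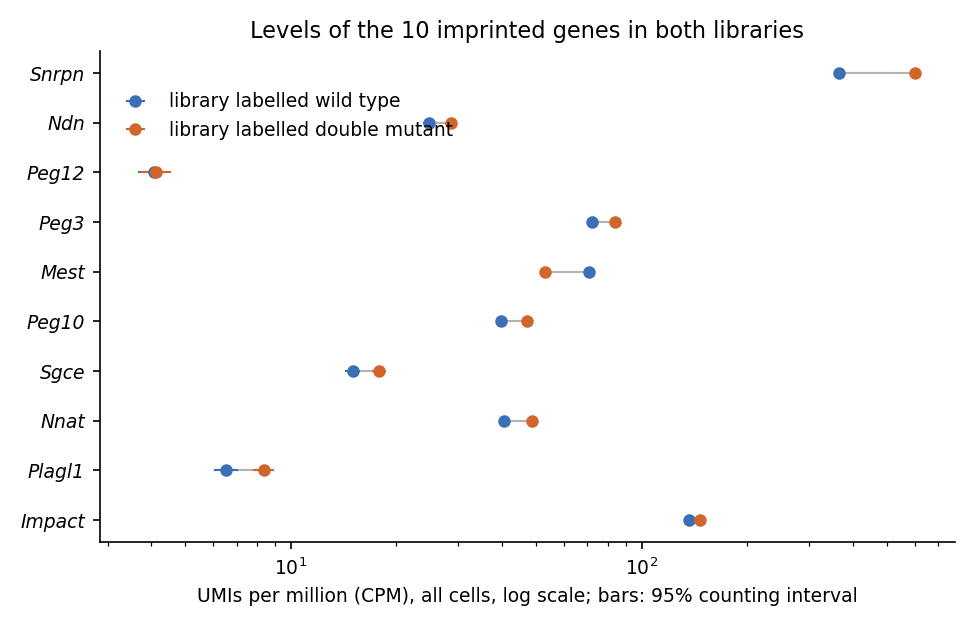
Level of each member over all cells of each library, in CPM on a log axis, with the 95% Poisson interval as a bar. Snrpn sits at 366 and 600.2 CPM, Mest is the member whose level is lower in the library labelled double mutant, and the Peg12 points nearly coincide.

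The members near Snrpn differed less than Snrpn. Ndn stood at 24.7 CPM in the library labelled wild type and 28.7 CPM in that labelled double mutant, a log2 ratio of 0.21 (0.14 to 0.29). Peg12, at 4.07 and 4.12 CPM (395 and 402 UMIs), gave 0.02 with an interval of -0.19 to 0.22 that holds 0. The 3 members of the region thus had unequal ratios. Snhg14, the long RNA downstream of Snrpn that runs on the same strand, was at 104 and 133 CPM, a log2 ratio of 0.35 (0.31 to 0.39). Gm38393, which overlaps Snrpn, gave 0.28 (0.23 to 0.34), and how its reads and those of Snrpn were divided cannot be told from the counts. Ube3a, a gene of the region listed as maternally expressed, was at 118 and 109 CPM, a log2 ratio of -0.11. Which of its copies these cells use was not measured.

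Peg3 was at 72.3 CPM in the library labelled wild type and 84.2 CPM in that labelled double mutant, a log2 ratio of 0.22 (0.17 to 0.27). Peg10 and Sgce, the divergent pair on chromosome 6, had near equal ratios of 0.24 (0.18 to 0.30) and 0.25 (0.15 to 0.35), from 39.8 to 47.1 CPM and from 15.0 to 17.8 CPM. Casd1, the neighbour on the Sgce side, gave -0.08, with an interval that holds 0. Copg2, which overlaps Mest, was at 35.5 and 36.1 CPM, a log2 ratio of 0.02 (-0.04 to 0.09), where Mest gave -0.41. Nnat was at 40.4 and 48.7 CPM, a log2 ratio of 0.27 (0.21 to 0.33), while Blcap, in whose intron it lies, gave -0.33 (-0.46 to -0.19). Plagl1, under the level minimum at 6.52 and 8.38 CPM, gave 0.36 (0.21 to 0.52), and Impact, at 136 and 147 CPM, gave 0.11 (0.08 to 0.15). Of the neighbours within 500 kb that were named by rule, Snhg14 was the one past the fold, beside 3.44% of all genes at the level minimum. It lies 6736 bases from Snrpn on the same strand, and whether its level is independent of that of Snrpn was not tested.

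Apart from Mest, the sign was shared. The ratio was above 0 for 9 of the 10 members, and the counting interval lay above 0 for 8 of them, all but Peg12. The median over the 8 members at the level minimum was 0.23, beside -0.02 over all genes, whose standard deviation was 0.16 and of which 42.9% were above 0. Since the members were chosen with these ratios known, the shared sign supports nothing about imprinted genes in general.

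Of 24 other paternally expressed imprinted genes on a list, 7 were at the level minimum, none of these was past the fold, and their median was 0.07. The largest in size were Kcnq1ot1, the long RNA of the Kcnq1 locus, at 0.30 (0.27 to 0.33), Mcts2, a retrogene for a translation factor, at 0.29 (0.20 to 0.38), and Gnas at -0.17 (-0.19 to -0.14). Counts of Gnas pool the paternally expressed transcripts of that locus with the one for a G protein subunit, which is not paternally expressed in most tissues. Among genes listed as maternally expressed at or near the members' loci, 4 were at the level minimum. None of these was past the fold, their median was -0.03, and which copy these cells use was not measured. The 6 genes of imprint maintenance at that level had a median of -0.05 and none past the fold. Trim28, the corepressor that ZFP57 recruits, gave 0.16 (0.14 to 0.18), the methyltransferase gene Dnmt1 -0.10 (-0.14 to -0.06), and Setdb1, a histone methyltransferase gene, -0.14 (-0.20 to -0.08). Zfp57 itself was under the minimum, at 3.84 and 4.58 CPM. In each of these lists none was past the fold, beside 3.44% of all genes at the level minimum. Lists this short cannot be told from that share.

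Cells were then compared within 3 overlapping classes, each of cells with at least 1 UMI of a marker. T (Brachyury) marks the primitive streak and early mesoderm, and Eomes the streak and definitive endoderm. Irx3 is among the early neural markers used here, but a UMI of it does not make a cell neural. The library labelled wild type held 2267 T positive cells and that labelled double mutant 3100, with 3780 and 6547 Eomes positive cells and 1346 and 657 Irx3 positive cells. Eomes positive cells were thus 43.4% and 61.8% of all cells, and Irx3 positive cells 15.5% and 6.21%. Of the Irx3 positive cells, 825 and 311 held no UMI of T or Eomes. Median depth in these classes was 11773 and 9771 UMIs for T, 11546.5 and 9179 for Eomes, and 11190 and 8881 for Irx3. A UMI of a marker is found more readily in a deeper cell, so class membership moves with depth, and its part in the ratios was followed only through the alternatives given at the end.

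Snrpn was higher and Mest lower in the library labelled double mutant in every one of these classes. Snrpn was at 365 and 611 CPM in T positive cells, at 393 and 633 CPM in Eomes positive cells, and at 357 and 561 CPM in Irx3 positive cells. Its log2 ratios were 0.74 (0.71 to 0.78), 0.69 (0.66 to 0.71) and 0.65 (0.59 to 0.71). Cells with none of the 3 markers, at 341 and 531 CPM, gave 0.64 (0.60 to 0.68), so the ratio ran from 0.64 to 0.74 over these groups of cells.

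Mest was at 61.4 and 50.0 CPM in T positive cells, at 64.1 and 50.2 CPM in Eomes positive cells and at 76.3 and 49.5 CPM in Irx3 positive cells. The log2 ratios were -0.30 (-0.39 to -0.20), -0.35 (-0.42 to -0.28) and -0.62 (-0.81 to -0.45), and -0.42 in cells with none of the 3. In T positive cells Mest was short of the fold. Its levels in the library labelled double mutant were near equal in the 3 classes, and those in the library labelled wild type were highest in Irx3 positive cells.

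In T positive cells 4.89% of 7608 genes were past the fold (1.97% higher, 2.92% lower), and 3 of the 8 members at the level minimum were, all upward: Snrpn, Nnat at 0.40 (0.28 to 0.52) and Sgce at 0.38 (0.18 to 0.58). Ndn, at 22.2 and 27.7 CPM, lay just short of the fold with 0.32 (0.17 to 0.47), as did Peg10 with 0.31 (0.18 to 0.44). With trimmed mean (TMM) or median of ratios scaling, both were past it, and the count was 5, beside 4.98% and 4.99% of all genes.

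In Eomes positive cells 2.91% of 7587 genes were past the fold (1.15% higher, 1.77% lower), and 5 of 8 members were. Peg10 was at 28.3 and 37.9 CPM, a log2 ratio of 0.42 (0.33 to 0.52), Sgce at 12.6 and 16.6 CPM, a ratio of 0.40 (0.25 to 0.54), and Nnat at 34.0 and 45.4 CPM, a ratio of 0.42 (0.33 to 0.51). These 3 and Snrpn were higher and Mest was lower. Peg3, at 70.1 and 86.3 CPM, was just short of the fold with 0.30 (0.24 to 0.36).

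In Irx3 positive cells, the smallest class, 7.79% of 7674 genes were past the fold (3.48% higher, 4.31% lower) and 3 of 8 members were: Snrpn and Nnat upward, the latter at 43.4 and 59.3 CPM with a ratio of 0.45 (0.27 to 0.63), and Mest downward. Sgce gave 0.08 and Impact 0.02, both with intervals that hold 0. Requiring 2 UMIs of Irx3, or leaving out cells that also held T or Eomes, gave 7 of 8 members, but these smaller classes also put 26.8% and 14.0% of all genes past the fold. The 7 were not all upward. Over the alternatives in Irx3 positive cells Mest ran from -1.01 to -0.60 and Impact from -0.40 to 0.06. The median ratio of the 8 members was 0.31 in T, 0.35 in Eomes and 0.27 in Irx3 positive cells, beside -0.02, -0.02 and -0.01 over all genes.

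**Figure D2:**
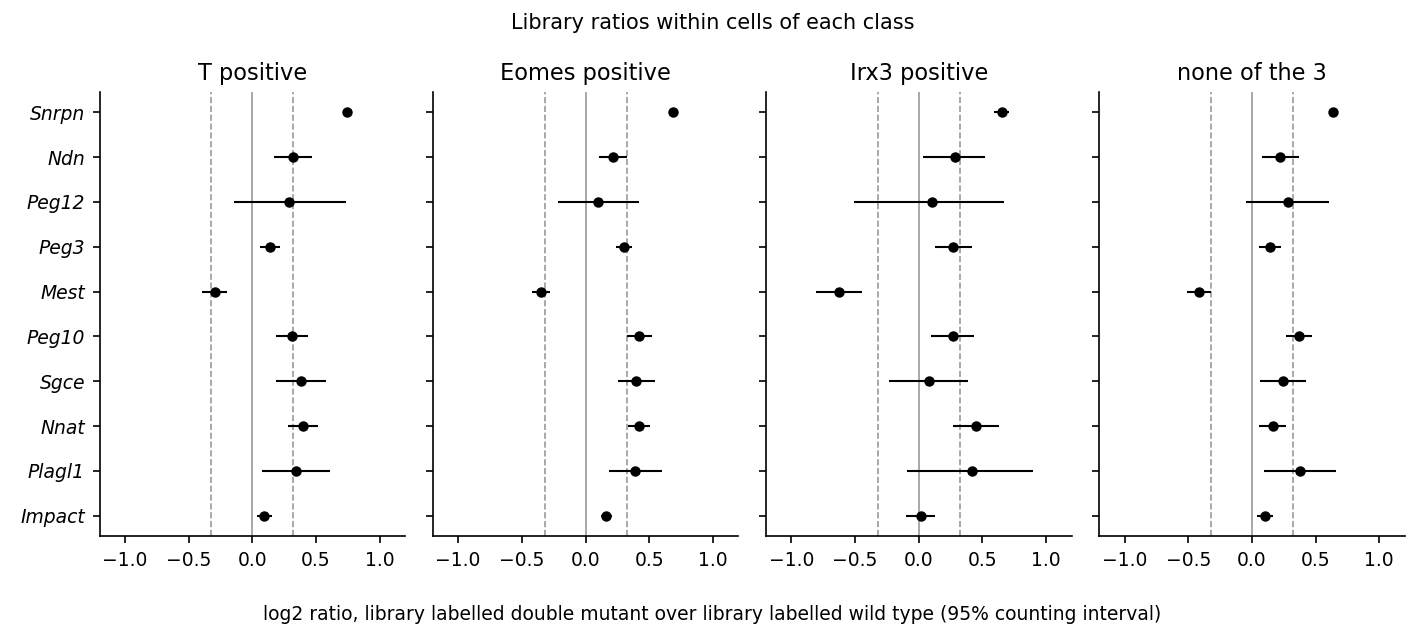
Log2 ratio of each member between the libraries in T, Eomes and Irx3 positive cells and in cells with none of these markers, with 95% counting intervals; dashed lines mark the fold of 25%. Snrpn lies between 0.64 and 0.74 in all 4 panels and Mest is below 0 in each.

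By a rule of nearness, the genes whose 3 class ratios were most like those of Snrpn among 7453 genes were B3gnt7, Prickle1 and Asns, at distances of 0.11, 0.12 and 0.14 on the log2 scale. None of the 3 lies on chromosome 7. B3gnt7, a glycosyltransferase gene, was at 12.5 and 19.7 CPM over all cells, Prickle1, a planar cell polarity gene, at 13.6 and 22.9 CPM, and Asns, which encodes asparagine synthetase, at 98.0 and 152 CPM.

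Within a library the members also differed between classes, and here the libraries served as 2 separate readings of the same contrast. Peg10 was the most uneven of those with many UMIs. It stood at 51.4 and 66.4 CPM in cells with none of the 3 markers but at 30.3 and 37.5 CPM in T positive and 28.3 and 37.9 CPM in Eomes positive cells, log2 differences of -0.76 and -0.82 for T and -0.86 and -0.81 for Eomes. Peg12, with 78 to 207 UMIs in these classes, differed by -0.97 and -0.96 for T and by -0.83 and -1.01 for Eomes. Nnat, Sgce and Mest were lower in the same direction, Nnat by -0.56 and -0.32 for T, Sgce by -0.46 and -0.33, and Mest by -0.38 and -0.26. Snrpn was higher there instead, by 0.10 and 0.20 for T and 0.21 and 0.25 for Eomes. In Irx3 positive cells the members stayed close to the cells with none of the markers, and the largest difference was -0.28, for Mest in the library labelled double mutant.

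Sox1, a gene of definitive neural precursors and one of the early neural markers, marked 349 and 232 cells. Several members were higher in them than in the rest. Peg12 was 7.46-fold and 5.45-fold higher there than in all other cells, at 23.9 CPM (95 UMIs) and 20.2 CPM (44 UMIs). Peg10 was 2.13-fold and 2.54-fold higher, at 81.1 and 115 CPM, and Mest 1.94-fold and 1.47-fold higher, at 131 and 76.7 CPM. Sgce was 1.87-fold and 2.07-fold higher, Nnat 1.96-fold and 1.54-fold and Plagl1 1.77-fold and 2.05-fold. Snrpn again went the other way, with log2 differences of -0.37 (-0.46 to -0.29) and -0.45 (-0.55 to -0.36). Peg3 gave 0.15 and 0.08, with intervals that hold 0.

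**Figure D3:**
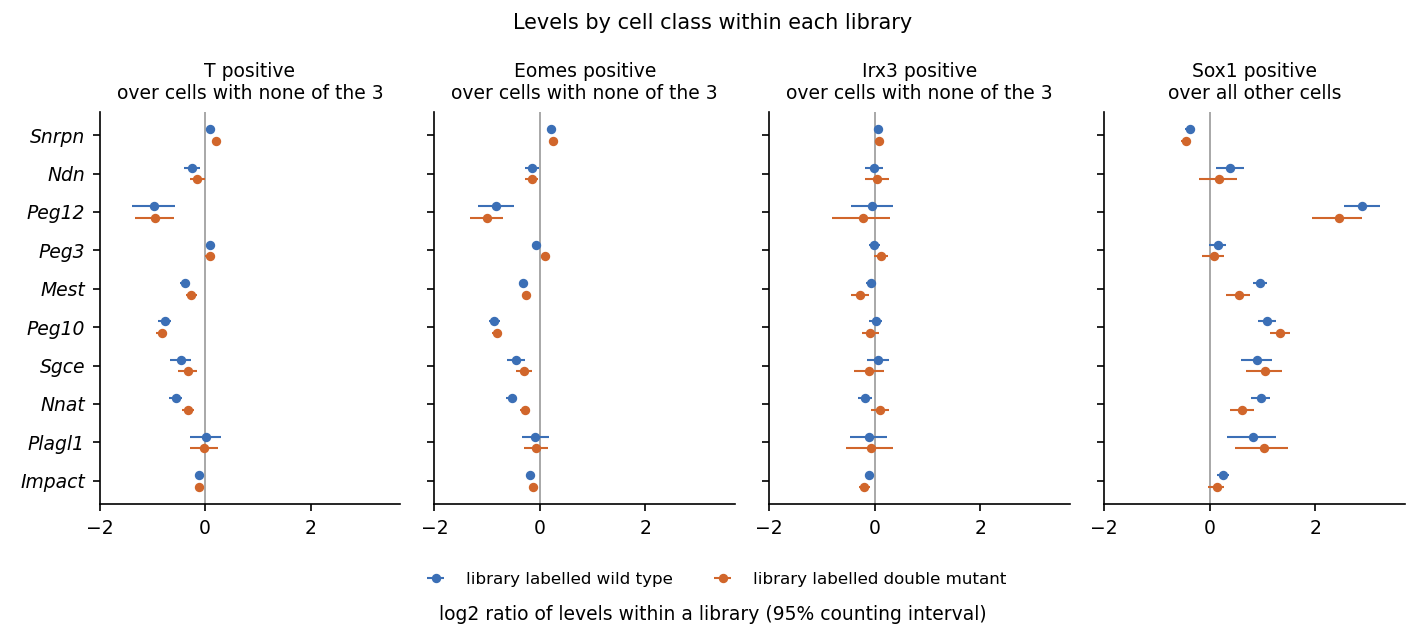
Log2 ratio of each member's level within a library, for T, Eomes and Irx3 positive cells over cells with none of the 3 and for Sox1 positive cells over all others, with 95% counting intervals. The points of both libraries lie close together for Peg10 and Peg12, which are below 0 in T and Eomes positive cells and above 0 in Sox1 positive cells.

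A few cells had at least 3 of 7 extraembryonic endoderm markers (Sox17, Gata6, Gata4, Sox7, Dab2, Cubn and Amn), namely 15 cells of the library labelled wild type and 16 of the other. Peg3 and Peg10 were high in them. Peg3 stood at 399 CPM (313 to 502) and 457 CPM (360 to 572), 5.61-fold and 5.50-fold above the other cells, and Peg10 at 219 CPM (156 to 298) and 228 CPM (162 to 313), 5.61-fold and 4.95-fold above them. Snrpn was low, at 21.9 CPM (4 UMIs) and 96.2 CPM (16 UMIs) against 366 and 601 CPM in the other cells. Mest had 0 of 182846 UMIs in the library labelled wild type. The upper limit of its counting interval there was 20.2 CPM, against 70.7 CPM in the other cells. The interval of the log2 difference had an upper limit of -1.81. In the library labelled double mutant Mest had 4 UMIs, at 24.0 CPM against 53.0 CPM in the other cells. That log2 difference was -0.97, with an interval of -3.02 to 0.22 that holds 0. Leaving these cells out changed no count of members past the fold.

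Cells with at least 3 of 7 naive pluripotency markers, 60 and 29 of them, also held more Peg10, 2.87-fold and 3.47-fold above the rest, at 112 and 160 CPM. Peg3 was 1.90-fold and 1.85-fold higher in them, at 136 and 154 CPM, and Snrpn lower, with log2 differences of -0.34 and -0.68. Mest was 1.65-fold and 1.28-fold higher in them, at 115 and 66.0 CPM, the latter difference with an interval that holds 0. Nnat had 14 and 10 UMIs in them.

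To compare single cells at equal depth, every cell was thinned to 4000 UMIs, which left out 258 and 358 shallower cells. Snrpn was found in 71.7% (70.8 to 72.7, exact binomial 95% interval) of the 8449 cells left in the library labelled wild type, against 84.6% (83.8 to 85.3) of 10229 cells for that labelled double mutant. Without thinning these shares were 92.2% and 95.2%. The median cell held 1 and 2 thinned UMIs and the cell at the 90th percentile 3 and 5, so the whole distribution lay higher in the library labelled double mutant. Cells with 5 thinned UMIs were 1.92% of the library labelled wild type and 6.53% of the other.

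**Figure D4:**
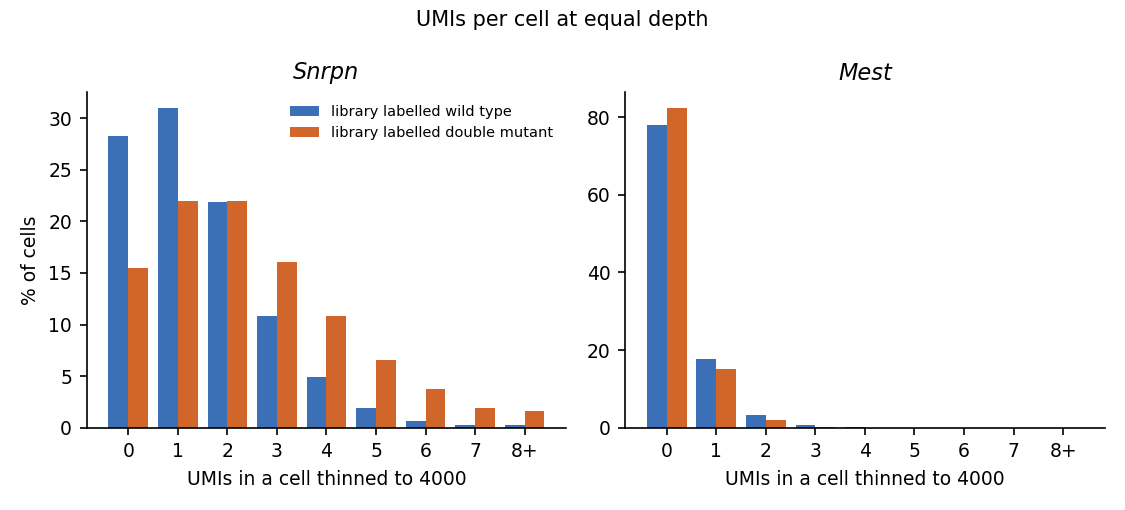
Share of cells, in percent, by the number of Snrpn or Mest UMIs after thinning each cell to 4000 UMIs. Cells with no Snrpn UMI are 28.3% and 15.4% of the libraries labelled wild type and double mutant, while most cells of either library have no Mest UMI.

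Mest was found in 22.1% (21.2 to 23.0) and 17.7% (16.9 to 18.4) of thinned cells, Peg3 in 22.7% and 26.7%, Impact in 39.3% and 42.2%, Nnat in 14.2% and 16.8% and Peg10 in 12.1% and 14.6%. The order of the libraries was the same as in CPM. Free RNA adds to such shares. In barcodes of 10 to 100 UMIs, which hold mostly free RNA, Snrpn was at 355 and 608 CPM, about its level in cells, Mest at 53.1 and 36.6 CPM, Peg3 at 43.2 and 47.6 CPM and Impact at 85.1 and 101 CPM. Among the cells with extraembryonic endoderm markers, with median depths of 11493 and 7992.5 UMIs, a Snrpn UMI was found in 2 of 15 (13.3%, 1.66 to 40.5) and 4 of 16 (25%, 7.27 to 52.4), far under the 92.2% and 95.2% of all cells at median depths of 10571 and 8637 UMIs.

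Peg10 was the member with the most uneven spread over cells. Its variance over its mean after thinning was 2.69 and 2.00, where 1 is expected from counting alone, with 8 and 4 cells at 8 or more thinned UMIs and a highest cell of 33 and 23. The ratio was 1.54 and 1.24 for Mest, 1.52 and 1.32 for Nnat, 1.34 and 1.24 for Peg3, 1.33 and 1.54 for Snrpn and 1.02 in both libraries for Ndn. Leaving out the cells with extraembryonic endoderm markers moved that of Peg10 to 2.69 and 1.98.

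Part of the cells of each library had a low share of UMIs from chromosome 6 or 11, and 3 members lie on chromosome 6. The share was taken over genes of at least 10 CPM without the members, in cells of at least 4000 UMIs, and called low at 0.8 of the median or under. A low share of chromosome 6 was found in 1827 of 8449 cells (21.6%) of the library labelled wild type and 1866 of 10229 (18.2%) of that labelled double mutant, and of chromosome 11 in 1511 (17.9%) and 600 (5.87%). These are ranges of a score and not cell types, and 468 and 401 cells lay between 0.8 and 0.9 of the median for chromosome 6. Both shares were low in 1214 and 250 cells. DNA was not measured, so a low share does not show loss of a chromosome copy.

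Mest was lower in cells low in chromosome 6 than in the remaining cells of both libraries. It stood at 34.3 CPM against 79.7 CPM in the remaining cells of the library labelled wild type, a log2 difference of -1.22 (-1.34 to -1.10), and at 24.8 against 59.0 CPM in that labelled double mutant, a difference of -1.25 (-1.40 to -1.11). The median over 362 and 364 chromosome 6 genes was -0.49 and -0.53, and 3 of them in each library were at -1 or under. Cells low in chromosome 6 were picked by the UMIs of such genes, Copg2 among them, but not by those of the members. The picking itself thus lowers the values of those genes, here and in the chromosome 6 contrasts below. Genes within 5 Mb of Mest had medians of -0.58 and -0.56. Copg2, which overlaps Mest, gave -0.62 and -0.70, so the overlapping pair differed by unequal amounts. Peg10, at -0.44 (-0.57 to -0.31) and -0.38 (-0.50 to -0.26), and Sgce, at -0.34 and -0.20, were no lower than the median gene of the chromosome, and genes within 5 Mb of Peg10 had medians of -0.53 and -0.50.

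Chromosome 11 moved with this contrast in the library labelled wild type. Among cells not low in chromosome 11, Mest differed by -0.63 (-0.79 to -0.48) between 613 cells low in chromosome 6 and 6325 others in the library labelled wild type, and by -1.18 (-1.34 to -1.04) between 1616 and 8013 cells in that labelled double mutant. The chromosome 6 genes had medians of -0.51 and -0.52 in this contrast, with lower quartiles of -0.61 and -0.62, and Copg2 gave -0.70 and -0.69. In the library labelled wild type Mest was thus close to the lower quartile of its chromosome, and its interval held the value of Copg2 (-0.93 to -0.48). Mest was also lower in cells low in chromosome 11 alone, by -1.46 (-1.80 to -1.16) and -0.78 (-1.09 to -0.50), where the chromosome 6 genes had medians of -0.16 and 0.08. Its lowest levels, 23.2 and 13.2 CPM, were in cells low in both. T was higher by 1.15 and 1.03 in cells low in chromosome 11 alone, and the part of cell state in the Mest levels was not tested.

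Peg3, on chromosome 7, went the opposite way. In cells low in chromosome 6 it was at 107 CPM against 64.2 CPM in the library labelled wild type, a log2 difference of 0.74 (0.66 to 0.81), and at 101 against 81.4 CPM in that labelled double mutant, a difference of 0.32 (0.24 to 0.39). It was higher by 0.82 (0.65 to 0.98) and 0.84 (0.69 to 0.99) in cells low in chromosome 11 alone, where Impact was higher by 0.24 and 0.39 and Peg10 lower by -0.56 and -0.89. Plagl1 differed by 0.58 (0.31 to 0.83) and 0.32 (0.06 to 0.56) in cells low in chromosome 6. Snrpn differed by -0.04 (-0.08 to -0.01) and -0.19 (-0.22 to -0.16) in cells low in chromosome 6, and by -0.06 (-0.15 to 0.03) and -0.28 (-0.36 to -0.20) in cells low in chromosome 11 alone.

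**Figure D5:**
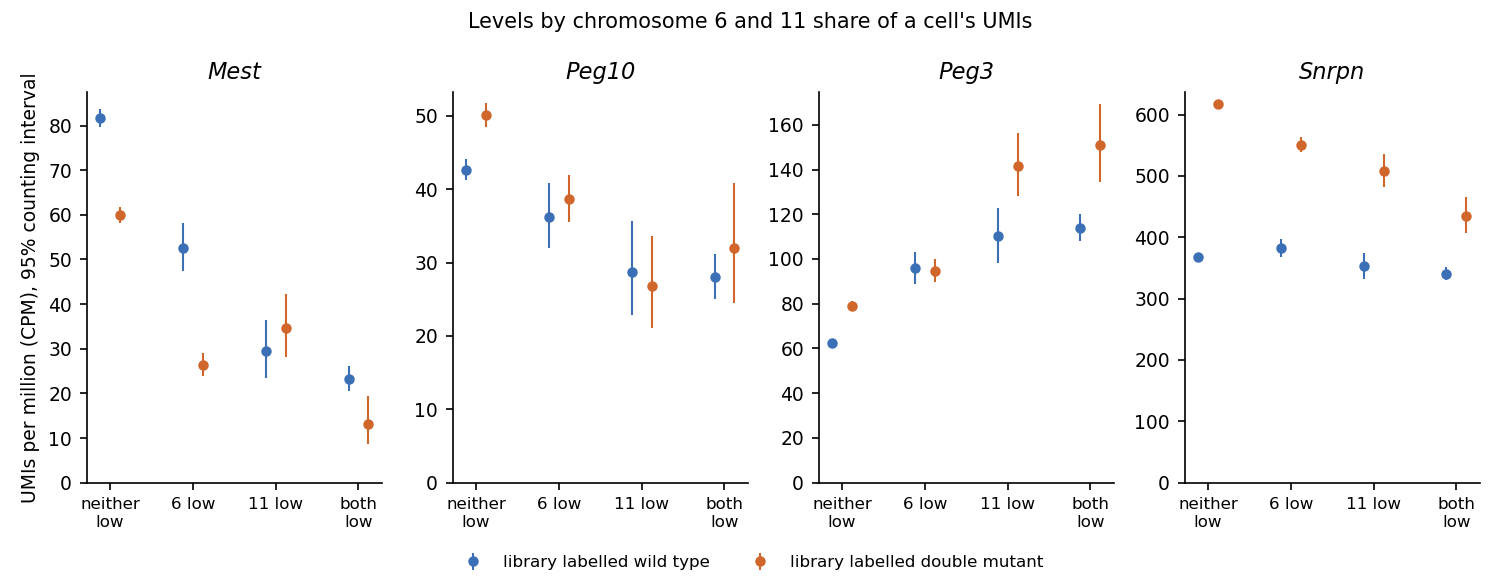
Level of Mest, Peg10, Peg3 and Snrpn in CPM, with 95% counting intervals, in cells grouped by whether their chromosome 6 and chromosome 11 shares were low. Mest is highest and Peg3 lowest in cells with neither share low, and Snrpn is higher in the library labelled double mutant in all 4 groups.

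The ratio of Snrpn between the libraries was largest in cells with neither share low, 6325 and 8013 of them. It was at 368 and 617 CPM there, a log2 ratio of 0.74 (0.72 to 0.76). In cells low in chromosome 6 alone its ratio was 0.53 (0.46 to 0.59), in cells low in chromosome 11 alone 0.53 (0.41 to 0.65), and in cells low in both, at 341 and 435 CPM, 0.35 (0.24 to 0.46). In cells with neither share low Mest was at 81.7 and 59.9 CPM, a ratio of -0.45 (-0.50 to -0.39). Peg3, at 62.4 and 79.2 CPM, and Nnat, at 38.9 and 49.8 CPM, were past the fold there, with ratios of 0.34 (0.29 to 0.40) and 0.35 (0.28 to 0.42), so that 4 members were past it and not 2, beside 3.54% of all genes. In cells low in chromosome 6 alone Peg3 was at 95.8 and 94.7 CPM, a ratio of -0.02 (-0.15 to 0.12), and Mest at 52.6 and 26.4 CPM, 2.00-fold lower in the library labelled double mutant. In cells low in chromosome 11 alone Mest was at 29.4 and 34.7 CPM, a ratio of 0.24 with an interval of -0.20 to 0.67.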

How the data were processed

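Transcripts were counted with the 10x Genomics 3′ v3.1 kit in 2 libraries, 1 per genotype. The matrices deposited hold raw UMI counts of each gene for 6794880 barcodes, that is, before any choice of cells. Cell Ranger 8.0.1 with default parameters made the analysis per the labels' protocols, and STARsolo, STAR 2.7.9a, Seurat 5.1.0 and the build mm10 are named per the submitters' processing notes. Which of them wrote the deposited counts is not given in the sources used here. Per the labels, cells had medians of 5333 and 5398 genes, while the cells kept here had 3275 and 2884.

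From the counts, cells were filtered (2500 UMIs, 1000 genes, 10% mitochondrial) and 32158 of 32285 features were matched by ID to GENCODE M21. Doublets were kept, and removed by Scrublet score (scanpy 1.11.5) at 0.8% per 1000 cells in an alternative. Counts were summed per library and cell class and scaled to CPM. Ratios have the exact conditional interval of 2 Poisson sums, single levels exact Poisson intervals and shares Clopper-Pearson intervals, all at 95%. They cover counting error only. No test was made, each genotype having 1 library. "Past the fold" means a level at least 25% higher in either library among genes with a mean of at least 10 CPM. The interval and fold calls were run on simulated data drawn as Poisson sums, the model that the intervals assume. That run checked the code, and not whether the intervals are wide enough for these libraries. Alternatives used other cell filters, scalings (edgeR 4.0.16 TMM, median of ratios), weights, pseudocounts, folds and class rules.

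The members, lists and rules were chosen with earlier results of these data known. Named genes are the members, Sp5, Sp8 and the class markers, the 3 largest ratios of each list, the 3 genes nearest to Snrpn and up to 4 neighbours of each locus. Blcap, Zfp57, Snurf, Sox1, Mesp1, Lhx1, Evx1 and the genes under other observations are outside that rule or were named after their values were seen. Extraembryonic, naive and Sox1 cells, and the joint use of chromosomes 6 and 11, were added after seeing the data.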

Additional observations from a re-analysis of the deposited data

Results flagged for a closer look

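Nnat and Ndn differed in opposite directions between cells low in chromosome 6 and the remaining cells in the libraries. For Nnat the library labelled wild type gave a log2 difference of 0.21 (0.09 to 0.32) and that labelled double mutant one of -0.21 (-0.33 to -0.10). For Ndn it was -0.16 (-0.31 to -0.01) and 0.16 (0.01 to 0.29). The difference between the libraries was not tested, since each is 1 sample. Among cells not low in chromosome 11 the values were 0.25 and -0.19 for Nnat and 0.08 and 0.22 for Ndn, so that the opposite directions remained for Nnat and not for Ndn. Neither gene lies on chromosome 6.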

How the results depend on the processing

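No paired analysis was possible because each genotype has 1 library, and for the same reason no replicate could be left out. The number of members past the fold in all cells, 2, was 4 in cells with no low chromosome 6 share, 4 with neither chromosome 6 nor 11 low, 5 when the 8 combinations of T, Eomes and Irx3 had equal weights in both libraries and 1 at 1.5-fold, beside 3.65%, 3.54%, 2.80% and 0.526% of all genes. In T positive cells, 3 became 5 with TMM scaling, 5 with median of ratios scaling, 5 when T was scored after thinning and 1 at 1.5-fold, beside 4.98%, 4.99%, 7.75% and 0.578% of all genes. In Eomes positive cells, 5 became 1 at 1.5-fold, beside 0.264% of all genes. In Irx3 positive cells, 3 became 7 with 2 UMIs of Irx3 and 7 in cells of Irx3 alone, where 26.8% and 14.0% of all genes were past the fold and not 7.79%. With equal weights Peg10, Sgce and Nnat joined Snrpn and Mest, at 0.43, 0.34 and 0.36. The other alternatives kept each count within 1.5 times. No called ratio changed sign under these alternatives. Snrpn ran from 0.54 to 0.78 and Mest from -1.01 to -0.10 over the alternatives in all cells and in T, Eomes and Irx3 positive cells. In smaller groups of cells Snrpn gave as little as 0.35, with both chromosome shares low, and Mest was at 0.24 with chromosome 11 alone low. Peg3 in T positive cells, not past the fold, ran from -0.24 to 0.30. Impact in Irx3 positive cells, not past the fold in the main setting, ran from -0.40 to 0.06. Of 540 alternative ratios 47 were outside the counting interval of the main value. In cells low in chromosome 6, 13 of 80 alternative levels were. All 20 shares of cells moved with the depth used.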

Other observations

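Maternally expressed imprinted genes of other loci were looked up after some of their values had been seen, so their count describes this choice. Of 11 such genes 7 were at the level minimum, and of these 4 were past the fold, all lower in the library labelled double mutant. Of all genes at that level 3.44% were past the fold, and 2.02% were so in that direction. Grb10, which encodes an adaptor that restrains growth factor signalling, was at 67.1 and 10.1 CPM, a log2 ratio of -2.72 (-2.82 to -2.63). Cdkn1c, the gene of a cell cycle inhibitor, was at 20.8 and 6.81 CPM, a ratio of -1.61 (-1.74 to -1.48), and its neighbour Phlda2 at 19.8 and 11.4 CPM, a ratio of -0.79 (-0.90 to -0.68). Igf2r, the receptor that clears IGF2, was at 31.3 and 23.8 CPM, a ratio of -0.39 (-0.47 to -0.31). These 4 were lower in T, Eomes and Irx3 positive cells too, Grb10 by -2.80, -2.76 and -2.44. The long RNAs of the Dlk1 locus went with none of this: Meg3 was at 509 and 617 CPM, a ratio of 0.28 (0.26 to 0.30), Rian gave -0.04 and Mirg 0.12.

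Paternally expressed genes under the level minimum included Zrsr1, at 6.61 and 10.3 CPM with a ratio of 0.64 (0.50 to 0.79), and Magel2, near Ndn, at 7.67 and 9.86 CPM with a ratio of 0.36 (0.22 to 0.50). Airn was also higher, at 0.90 (0.10 to 1.78) from 20 and 38 UMIs. Sfmbt2, at -0.29 (-0.50 to -0.09), and Igf2, at -0.46 (-0.90 to -0.03), went the other way. For the other listed paternally expressed genes under the minimum that had UMIs, among them Mkrn3, Nap1l5, Usp29 and Dlk1, the interval held 0. The genes under the minimum thus shared no sign. All of them were named after their values were seen.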
